A study of Homo sapiens with 192 samples.

Results

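The enzymes and transporters that handle extracellular nucleotides and nucleosides beside CD39 and CD73 were followed across 4 colorectal cancer (CRC) cell lines. They are 10 genes, chosen by their known role and with earlier results of these data known. The nucleotidases are ENTPD2, ENTPD3, ENTPD5 and ENTPD8, and the pyrophosphatases ENPP1 and ENPP3. The others are the adenosine-using enzymes ADA and ADK, and the nucleoside transporters SLC29A1 and SLC29A2. These are 10 of the 58243 genes listed in the deposited counts. A count was found for 9 of them, and the same 9 were among the 19387 genes with enough reads to be tested. Messenger RNA had been sequenced from HT29, LS513, HCT116 and LS174T, all established human CRC lines, each grown in 2D or in 3D. No agent or genetic change is named in the labels, and the 8 groups of line and growth condition hold 3 libraries each. Per the study's methods HCT116 was kept in McCoy medium and the other lines in DMEM, so line and medium cannot be told apart where HCT116 is compared with another line. The study grew spheroids for its growth assays in low attachment plates, and does not say again how the 3D cultures that gave RNA were made. Each line stands for itself and not for a class of tumours.

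ATP that leaves a cell is cut down step by step at the cell surface, first to ADP and AMP and then to adenosine. CD39 (ENTPD1) and CD73 (NT5E) are the best known pair of enzymes on this route, but other NTPDases and ENPP enzymes also remove the outer phosphates of ATP. Adenosine is then either deaminated to inosine by ADA, or carried into the cell by the equilibrative transporters ENT1 (SLC29A1) and ENT2 (SLC29A2) and turned back into AMP by ADK. These transporters let nucleosides pass in either direction, down the gradient.

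Total counts per library lay between 18723942 (HT29 2D replicate 3) and 34277421, with a median of 30777613. Of 11 colon epithelial markers, 8 had more than 3 counts in every library. CDX1, CEACAM5 and LGALS4 did not, and had at most 1, 2 and 19 counts in any HCT116 library. VIL1, which did, had at most 9 counts in that line. Of 11 markers of immune, endothelial and stromal cells, CD3E and COL1A2 were at 0 in every library, and the summed level of all 11 lay between 0.418 and 25.5 CPM (counts scaled by the size of the library). This sum rose without overlap in HT29, from between 7.89 and 9.29 CPM in 2D to between 12.9 and 19.1 CPM in 3D, with CD14 and DES called higher, and DES was called higher in HCT116. COL1A1 reached 655 counts in HCT116. The cultures also differed in other ways. Of 10 genes induced by low oxygen, all 10 were called higher in 3D in HCT116 and LS174T, 9 in LS513 and 7 in HT29. Of 8 proliferation markers, 5 were called lower in HT29 and LS513, 4 in HCT116 and 2 in LS174T. In libraries made from whole cultures, fewer cells that express a gene and less RNA of it per cell cannot be told apart. What part these differences had in the values given here was not tested.

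All 10 genes are annotated as protein coding. On GRCh38 with GENCODE 29, ENTPD2 lies at chr9:137048098-137054045, ENTPD8 at chr9:137434364-137441816, ENTPD3 at chr3:40387156-40428744 and ENTPD5 at chr14:73958010-74019399. The neighbours ENPP3 and ENPP1 lie on chromosome 6, at chr6:131628442-131747418 and chr6:131808016-131895155. ADA lies at chr20:44619522-44652233, ADK at chr10:74151185-74709303, SLC29A1 at chr6:44219505-44234151 and SLC29A2 at chr11:66362521-66372214. The counts cover whole genes, so they do not separate the transcripts of a gene. For ENTPD5, 24.5% of the exonic bases are shared with genes on the opposite strand, chiefly COQ6, and for SLC29A2 10.3%. Whether reads were counted by strand is not given in the sources used here.

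The question behind the comparison of growth conditions was whether 3D culture changes the expression of genes of extracellular purine handling. Genes were called at an adjusted p under 0.05 from edgeR. SLC29A1 was lower in 3D in all 4 lines. ENTPD2 was called higher in HT29, LS513 and LS174T, and ENTPD8 in HT29, LS513 and HCT116. For ENTPD5 and ADA edgeR made no call in any line, though each had 1 line with an unadjusted p under 0.05, and DESeq2 called ADA in LS174T. ENTPD3 was not detected.

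In HT29, 2 of 9 tested members were called higher and 2 lower in 3D, beside 21.1% and 19.6% of all tested genes. In LS513, 3 were higher and 3 lower, beside 13.7% and 9.9% of all genes. In HCT116, 1 was higher and 1 lower, beside 16.8% and 12.3%. In LS174T, 1 was higher and 1 lower, beside 13.1% and 9.15%. The members' shares in HT29, HCT116 and LS174T were near those of all genes, and the number of calls does not set them apart. In LS513 the shares were above those of all genes, and that difference was not tested. The counts in HCT116 and LS174T came to 4 each when 3D replicate 3 of the line was left out. In LS174T the count was also 4 with DESeq2 or with all genes that had a count. Without single libraries, all genes called also moved, between 3747 and 5986 in HCT116 and between 2083 and 6038 in LS174T. For the other fits the number over all genes is not given here, so none of these counts sets the members apart. A call in the same direction in several lines was rarer over all genes. Lower in all 4 lines were 2.46% of tested genes and, among the members, SLC29A1. Higher in 3 or 4 lines were 8.38% of tested genes and, among the members, ENTPD2 and ENTPD8.

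**Figure D1:**
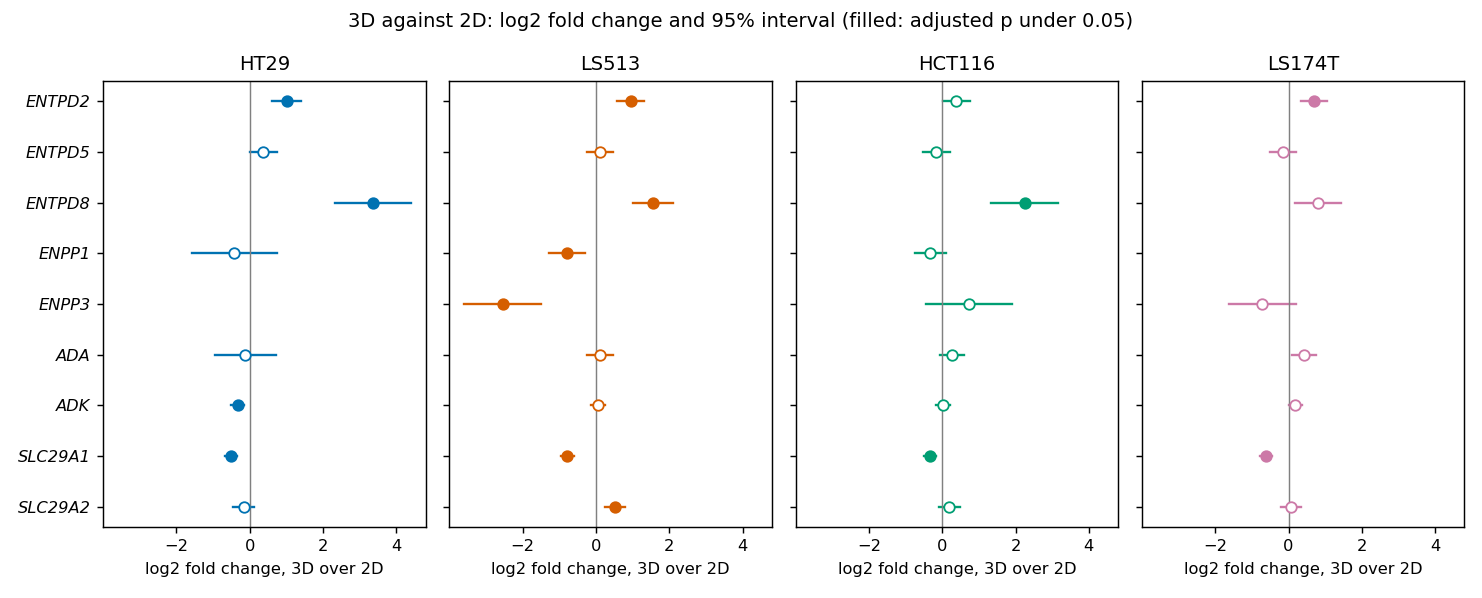
Log2 fold change of 3D over 2D for the 9 tested members (rows) in each line (panels), with its 95% interval, from edgeR. Filled points have an adjusted p under 0.05; fold changes are left out where no library of the line had more than 3 counts. SLC29A1 lies left of 0 and is filled in all 4 panels, while ENTPD2 and ENTPD8 lie right of 0 in all 4 and are filled in 3 each.

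Between genes, levels were set side by side only per kilobase of exonic length (CPM per kb). In 2D the transporters and ADK led in HT29, LS513 and HCT116. In LS513, SLC29A1 stood at 61.6 ± 4.65 CPM per kb (SD, n = 3), SLC29A2 at 18.6 ± 1.57 and ADK at 11.0 ± 0.797. ENTPD2 was the highest of the 4 member NTPDases in every group, from 2.69 ± 0.631 CPM per kb in HT29 2D to 27.5 ± 2.14 in LS174T 3D, where it had the highest mean of all 10 members. ENTPD8, ENPP1 and ENPP3 were low by comparison, and no group reached 6 CPM per kb for any of them. For reference, ENTPD1 (CD39) never passed 0.0287 CPM per kb as a group mean, whereas NT5E (CD73) lay between 7.07 and 18.1. The order depends on the length used. With the length of the principal transcript in place of all exons, an alternative added after seeing the data, SLC29A1 and ADK both stood above ENTPD2 in LS174T 3D, with 42.8 and 48.9 against 34.6 CPM per kb. With that length ADA stood above SLC29A2 in HCT116 2D, with 16.1 against 12.3 CPM per kb.

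**Figure D2:**
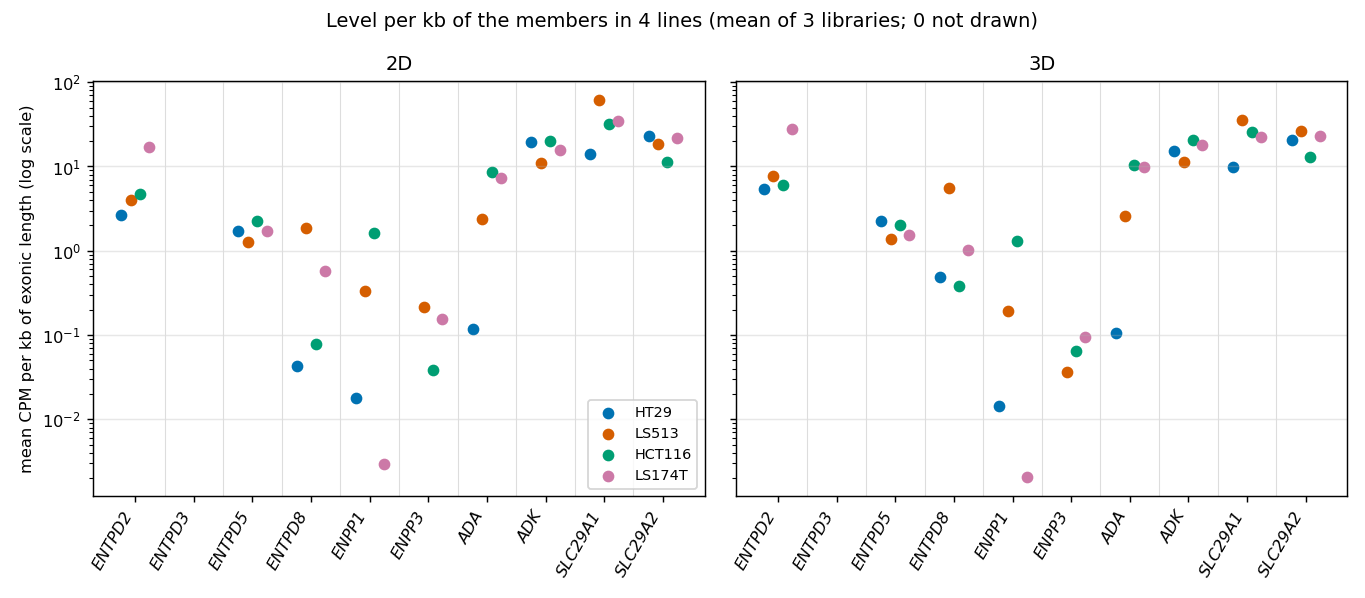
Mean level of each member in CPM per kb of exonic length, on a log scale, in 2D (left) and 3D (right). Each point is the mean of 3 libraries of 1 line and groups at 0 are not drawn; ENTPD3 has no point, and ADA, ENPP1 and ENTPD8 spread more widely over the lines than ADK, SLC29A2 and ENTPD5.

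The level of every tested member differed among the lines over both growth conditions (9 of 9, beside 95.7% of all tested genes, edgeR). Line by line in 2D, 8 of 9 members differed between LS513 and HT29, beside 60.6% of all genes, and 6 between HCT116 and HT29, beside 68.8%. Between LS174T and HT29, 7 differed, beside 64.6%. For HCT116 against LS513 the count was 8, beside 68.3%, and for LS174T against LS513 it was 7, beside 57.6%. LS174T and HCT116 differed in 6, beside 68.3%. These counts are of the same order as the background, so the order of the lines is given gene by gene.

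ENTPD2 encodes NTPDase2, a membrane enzyme that preferentially turns ATP into ADP. It was highest in LS174T: in 2D the 3 libraries of this line held 45.6, 43.9 and 44.1 CPM and in 3D 75.3, 76.0 and 65.9 CPM. No library of another line passed 22.8 CPM. In 2D, LS174T stood 3.62-fold above HCT116 (adjusted p = 2.28e-09), HCT116 and LS513 were not told apart (12.3 ± 1.32 and 10.6 ± 1.98 CPM, adjusted p = 0.284), and HT29 was lowest (7.08 ± 1.66 CPM; 1.51-fold below LS513, adjusted p = 0.00815).

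With growth in 3D, ENTPD2 rose in HT29 from 6.34, 5.92 and 8.98 CPM to 16.9, 12.2 and 13.1 CPM. In LS513 it rose from 9.88, 9.03 and 12.8 to 22.8, 21.4 and 17.0 CPM. In both lines and in LS174T the lowest 3D library stood above the highest 2D library. The folds were 2.01 in HT29 (log2 1.01, SE 0.19, adjusted p = 0.000179), 1.93 in LS513 (log2 0.95, SE 0.18, adjusted p = 0.00041) and 1.63 in LS174T (log2 0.70, SE 0.17, adjusted p = 0.00522). In HCT116 the 2D libraries held 11.1, 12.1 and 13.7 CPM and the 3D libraries 18.8, 17.7 and 11.6 CPM. The groups overlapped there because 3D replicate 3 lay among the 2D values, and the difference was not called (log2 0.38, interval 0.02 to 0.75, adjusted p = 0.107). Leaving out single libraries of HCT116 moved the log2 fold change between 0.24 and 0.55. Without 3D replicate 3 the difference was called, at log2 0.55 and an adjusted p of 0.0204. The same library also had the lowest summed level of the low-oxygen genes in its group, 1179 CPM against 1757 and 1784. Its sum of proliferation markers was the highest, 2637 CPM against 2187 and 2374, as was that of epithelial markers, 6055 against 5476 and 5873. In LS174T 3D, replicate 3 had the lowest ENTPD2 but the highest low-oxygen sum, 2179 CPM against 2118 and 2085. The part of these sums in the ENTPD2 values was not tested. The change of ENTPD2 was not shown to differ among the lines (interaction adjusted p = 0.232; 0.0393 with all genes that had a count).

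**Figure D3:**
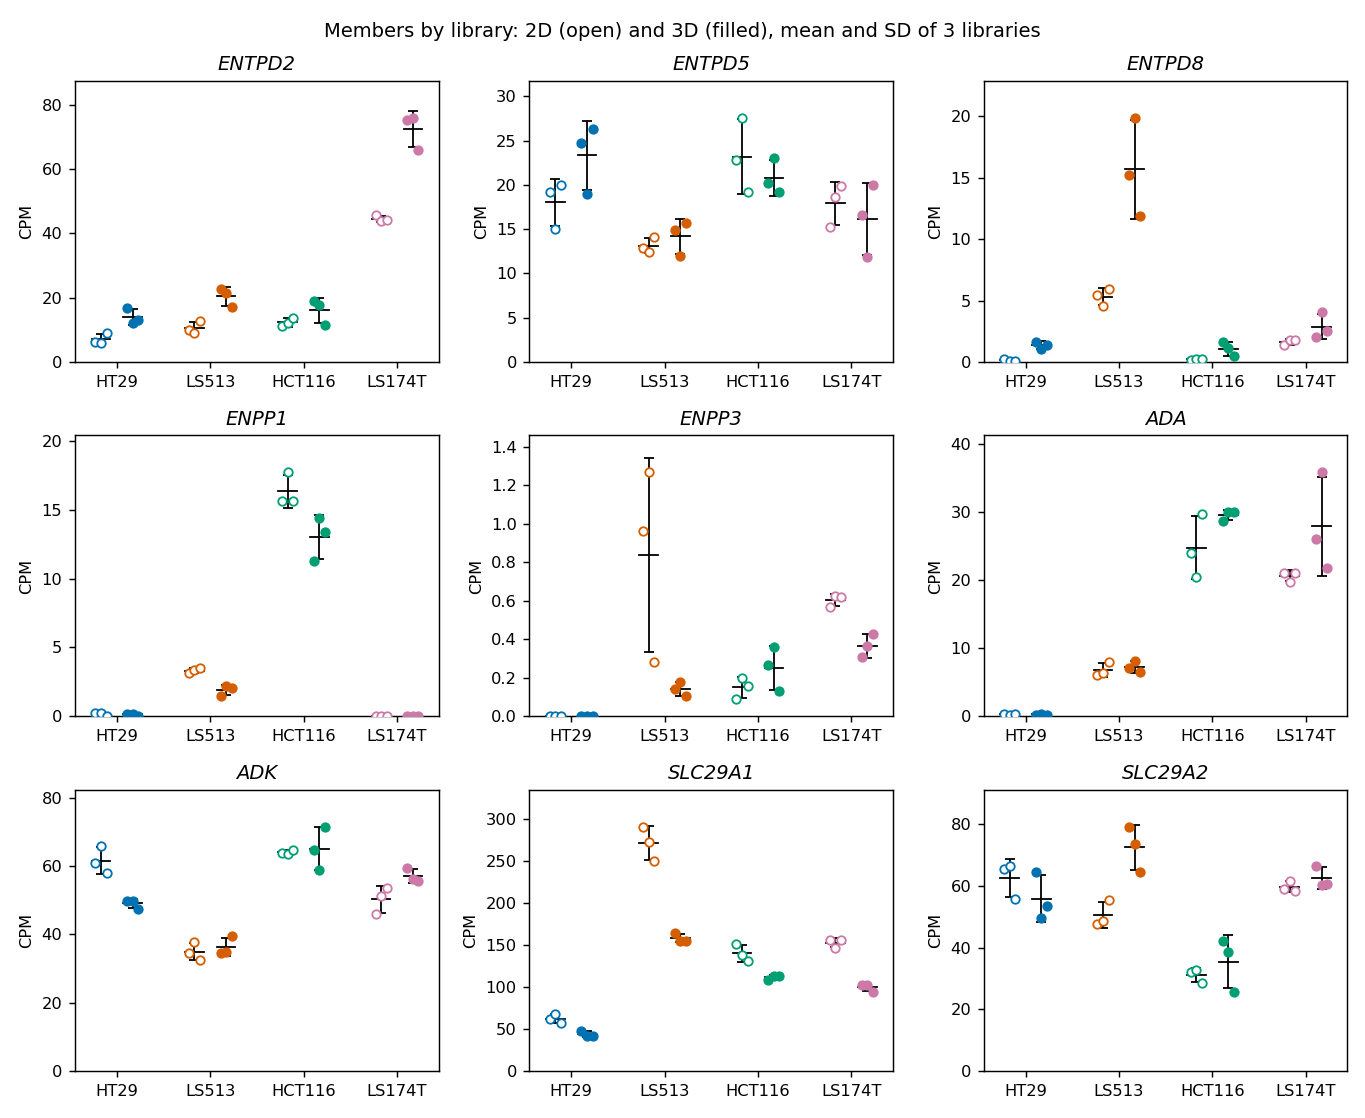
CPM of the 9 detected members in each of the 24 libraries, by line, with 2D libraries as open and 3D libraries as filled points, and with the mean and SD of 3 libraries. Every vertical axis is linear, starts at 0 and has its own range; the 3D points of SLC29A1 lie below the 2D points in every line, and ENTPD2 is highest in LS174T.

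ENTPD8 encodes NTPDase8, a surface enzyme that hydrolyses ATP and ADP. In 2D it was highest in LS513, followed by LS174T, with 5.33 ± 0.677 and 1.64 ± 0.255 CPM (3.24-fold apart, adjusted p = 2.18e-05). HCT116 and HT29 were close to the limit of detection in 2D, with 6, 8 and 8 counts and with 6, 3 and 1 counts, and were not told apart (adjusted p = 0.327). In 3D the counts in HT29 came to 55, 30 and 39, and in HCT116 to 49, 34 and 14. Neither line had a 3D library at or below its 2D libraries.

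In LS513, where ENTPD8 was well covered, it rose from 5.47, 4.59 and 5.92 CPM to 15.2, 19.9 and 11.9 CPM, a fold of 2.94 (log2 1.56, SE 0.26, adjusted p = 0.000151). The fold was 10.3 in HT29 (log2 3.36, interval 2.33 to 4.40, adjusted p = 1.72e-05) and 4.75 in HCT116 (log2 2.25, interval 1.34 to 3.15, adjusted p = 0.000515), both measured from a handful of reads in 2D. Without 2D replicate 1, which held 6 of the 10 reads, the log2 fold change in HT29 was 4.02. LS174T went from 1.35, 1.76 and 1.81 CPM to 2.05, 4.05 and 2.55 CPM. Its groups did not overlap, but the difference missed the threshold (log2 0.80, interval 0.19 to 1.42, adjusted p = 0.0553). It was called with DESeq2 (adjusted p = 0.0409), and with edgeR without 3D replicate 1 or 3 (adjusted p = 0.0317 and 0.0447) or with all genes that had a count (adjusted p = 0.00589). Leaving out single libraries of LS174T moved the log2 fold change between 0.497 and 0.999. The size of the change differed among the lines (interaction adjusted p = 0.0187). In this test 4 of 9 members were called, beside 17.1% of all genes. Leaving out HT29 2D replicate 2 ended the call of ENTPD8 (adjusted p = 0.0594).

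Alongside ENTPD8, 8 of 11 colon epithelial markers were called higher in LS513 and 7 higher and 1 lower in HT29, against 4 higher each in LS174T and HCT116. The summed level of these markers went from 10940 to 11300 CPM in LS513 2D libraries to between 15100 and 17230 CPM in 3D. In HT29 it lay between 15460 and 18470 CPM in 2D and between 17050 and 17410 CPM in 3D, so the groups overlapped. In HCT116 it went from between 3574 and 4613 CPM to between 5476 and 6055 CPM, without overlap, and in LS174T from between 3614 and 5040 to between 4631 and 6881 CPM, with overlap. In HT29 the sum was mostly KRT8 and KRT18, with means of 8204 and 5581 CPM in 2D and 8465 and 4191 CPM in 3D. KRT18 was the marker called lower there, so the sum hides the markers called higher. The part of the epithelial markers in the ENTPD8 values was not tested.

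ENTPD5 encodes an NTPDase of the endoplasmic reticulum that favours UDP and GDP and can be secreted. It was found in all 24 libraries at a narrow range of 11.9 to 27.6 CPM. In 2D HCT116 was highest with 23.2 ± 4.21 CPM and LS513 lowest with 13.1 ± 0.835 CPM (1.77-fold, adjusted p = 0.000231), and HT29 and LS174T between them were not told apart from each other (adjusted p = 0.993) or from HCT116 (adjusted p = 0.0665 and 0.06). Growth in 3D gave no call in any line. The interval of the log2 fold change was 0.01 to 0.74 in HT29, -0.52 to 0.20 in HCT116, -0.26 to 0.48 in LS513 and -0.51 to 0.21 in LS174T. In HT29 the adjusted p of 0.0913 fell to 0.0256 without 3D replicate 3, the lowest 3D library with 18.9 CPM, and to 0.0255 with all genes that had a count. Leaving out single libraries of HT29 moved the log2 fold change between 0.29 and 0.55. The reads of COQ6, which overlaps ENTPD5 on the opposite strand, numbered 237 to 1093 per library.

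ENTPD3, which encodes NTPDase3, had 0 counts in all 24 libraries. A count of 0 allows up to 3 counts, which is 0.0875 to 0.16 CPM depending on the depth of the library, and this covers counting error only. No other member lacked reads in every library.

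ENPP1 encodes a membrane pyrophosphatase that splits ATP into AMP and pyrophosphate. Its level was spread widely over the lines. In 2D, HCT116 held 516, 616 and 487 counts (16.3 ± 1.22 CPM), LS513 97, 111 and 111 counts (3.33 ± 0.199 CPM), HT29 7, 7 and 1 counts, and LS174T 1, 0 and 2 counts. Each neighbour in this order differed from the next (adjusted p = 1.86e-09, 2.95e-10 and 0.0041), although the values of LS174T are at or under the limit of 3 counts and give no fold.

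In 3D ENPP1 fell in LS513 from 3.12, 3.35 and 3.52 CPM to 1.51, 2.20 and 2.04 CPM. The groups did not overlap, and the fold was 1.73 (log2 -0.79, SE 0.24, adjusted p = 0.0166). This call was lost without 2D replicate 2, 2D replicate 3 or 3D replicate 1, with an adjusted p of 0.0505, 0.0515 and 0.099. HCT116 went from 15.6, 17.7 and 15.6 CPM to 11.3, 14.4 and 13.4 CPM, also without overlap, but was not called (log2 -0.32, interval -0.74 to 0.09, adjusted p = 0.243). The counts of HT29 in 3D were 6, 6 and 1 (adjusted p = 0.593), and those of LS174T 0, 0 and 2.

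ENPP3, known as CD203c on basophils, is a related pyrophosphatase. Its reads were few everywhere: at most 42 counts in a library, and 0 in all 6 HT29 libraries. In LS513 the 2D libraries held 30, 42 and 9 counts and the 3D libraries 4, 5 and 3. The fold was 5.85 lower in 3D (log2 -2.55, interval -3.60 to -1.50, adjusted p = 0.00101), with 2D replicate 3 well below the other two 2D libraries and still above all 3D libraries. LS174T held 19, 22 and 21 counts in 2D and 10, 10 and 14 in 3D, without overlap and without a call (log2 -0.72, interval -1.63 to 0.20, adjusted p = 0.25). HCT116 had 3, 7 and 5 counts in 2D and 8, 11 and 4 in 3D, and its groups overlapped (log2 0.73, interval -0.45 to 1.91, adjusted p = 0.362). LS513 and LS174T were not told apart in 2D (adjusted p = 0.323). The interaction test of the 3D effect was called (adjusted p = 0.0279), and HT29, with no reads, adds no 3D effect to it. This call was lost on leaving out any of 7 of the 24 libraries (adjusted p at most 0.0836).

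ADA, the deaminase that turns adenosine into inosine, separated HT29 from the other lines. The 6 HT29 libraries held 6 to 12 counts each, 0.334 ± 0.0806 CPM in 2D and 0.301 ± 0.102 CPM in 3D. In 2D LS513 stood at 6.79 ± 1.01 CPM, 20.5-fold above HT29 (adjusted p = 5.49e-13), LS174T at 20.7 ± 0.772 CPM, and HCT116 at 24.8 ± 4.66 CPM, 74.6-fold above HT29 (adjusted p = 2.82e-16). LS174T and HCT116 were not told apart (adjusted p = 0.15).

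Growth in 3D brought no call for ADA. In LS174T, 21.1, 19.8 and 21.1 CPM stood against 26.1, 35.8 and 21.7 CPM, without overlap but with a wide spread in 3D (log2 0.43, interval 0.10 to 0.76, adjusted p = 0.0539). Without 3D replicate 3, the lowest of the 3D libraries, the adjusted p was 0.00843, and on all libraries it was 0.0435 with DESeq2 and 0.0396 with all genes that had a count. Leaving out single libraries of LS174T moved the log2 fold change between 0.22 and 0.58, so its size hung on single libraries. The interval was -0.25 to 0.46 in LS513, -0.07 to 0.58 in HCT116 and, with the few reads of that line, -0.95 to 0.71 in HT29.

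ADK, the kinase that turns adenosine back into AMP inside the cell, was among the steadiest members, between 32.6 and 71.6 CPM in all 24 libraries. In 2D HCT116 (64.1 ± 0.602 CPM) and HT29 (61.6 ± 3.95 CPM) were not told apart (adjusted p = 0.596). LS174T followed with 50.3 ± 3.99 CPM, 1.23-fold below HT29 (adjusted p = 0.0057), and LS513 was lowest with 35.0 ± 2.54 CPM, 1.44-fold below LS174T (adjusted p = 2.17e-05). Set beside ADA per kb, ADK was 2.37 ± 0.414 times ADA in HCT116 2D, 2.18 ± 0.205 times in LS174T 2D and 4.70 ± 0.896 times in LS513 2D. In HT29 2D the same ratio was 175 ± 60.6, resting on the few ADA reads. The size of this ratio depends on the length used. With the principal transcripts, an alternative added after seeing the data, ADK and ADA stood further apart. They had 54.8 and 16.1 CPM per kb in HCT116 2D, 43.0 and 13.4 in LS174T 2D, and 29.9 and 4.41 in LS513 2D.

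In 3D ADK was lower in HT29, with 49.9, 49.8 and 47.6 CPM against 61.0, 65.9 and 58.0 CPM in 2D. The fold was 1.26 (log2 -0.33, SE 0.09, adjusted p = 0.0052), and the call was lost without 2D replicate 2 (log2 -0.24, adjusted p = 0.0688) and with all genes that had a count (adjusted p = 0.104). The interval of the log2 fold change was -0.13 to 0.24 in LS513, -0.16 to 0.20 in HCT116 and 0.00 to 0.37 in LS174T. LS174T showed no overlap between its groups (45.9, 51.2 and 53.7 CPM in 2D, 59.5, 56.3 and 55.6 CPM in 3D) and was not called (adjusted p = 0.138). The interaction test gave an adjusted p of 0.0257 for ADK, and the call was lost on leaving out any of 12 of the 24 libraries (adjusted p at most 0.145) or with all genes that had a count (adjusted p = 0.328).

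SLC29A1 encodes ENT1, the equilibrative transporter through which adenosine crosses the membrane. Its level in 2D was highest in LS513 (272 ± 20.5 CPM), followed by LS174T (153 ± 5.21 CPM), HCT116 (140.2 ± 9.84 CPM) and HT29 (62.2 ± 5.34 CPM). LS513 stood 1.77-fold above LS174T (adjusted p = 4.93e-09), LS174T and HCT116 were not told apart (adjusted p = 0.173), and HCT116 stood 2.25-fold above HT29 (adjusted p = 9.83e-12).

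SLC29A1 fell in 3D in every line. In LS513 the libraries went from 291, 273 and 250.4 CPM to 164, 156 and 155 CPM, a fold of 1.72 (log2 -0.78, SE 0.08, adjusted p = 2.99e-07). In LS174T they went from 156, 147 and 156 CPM to 102, 102 and 94.6 CPM, a fold of 1.54 (log2 -0.62, SE 0.08, adjusted p = 1.16e-05). The 2D and 3D libraries did not overlap in either line. In HT29 61.4, 67.9 and 57.4 CPM stood against 47.5, 42.0 and 41.6 CPM, a fold of 1.42 (log2 -0.51, SE 0.08, adjusted p = 4.65e-05). HCT116 had the smallest change, from 151, 139 and 131 CPM to 109, 114 and 114 CPM, a fold of 1.25 (log2 -0.33, SE 0.08, adjusted p = 0.00421). Here too no 3D library reached the lowest 2D library. The size of the fall differed among the lines (interaction adjusted p = 0.035), a call that was lost on leaving out any of 16 of the 24 libraries, with an adjusted p of at most 0.0987, and with all genes that had a count (adjusted p = 0.297). The fall itself was called in each line whichever library was left out.

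SLC29A2 encodes ENT2, which carries nucleosides and also nucleobases. HCT116 was the line that stood apart in 2D, with 31.0 ± 2.32 CPM, 1.63-fold below LS513 (adjusted p = 7.76e-05). HT29, LS174T and LS513 had 62.6 ± 6.01, 59.7 ± 1.78 and 50.7 ± 4.27 CPM and were not told apart from each other (adjusted p from 0.0561 to 0.682). In 3D, LS513 alone was called: it rose from 47.7, 48.7 and 55.6 CPM to 79.3, 73.7 and 64.6 CPM, a fold of 1.43 (log2 0.52, SE 0.14, adjusted p = 0.00726), and the call was lost without 3D replicate 1 (adjusted p = 0.0573). The interval was -0.44 to 0.12 in HT29, -0.09 to 0.48 in HCT116 and -0.21 to 0.35 in LS174T. In HCT116, leaving out single libraries moved the log2 fold change between 0.03 and 0.35. Without 3D replicate 3 (25.6 CPM, against 42.0 and 38.6 CPM) the difference was called, at log2 0.35 (adjusted p = 0.0368). The interaction test was not called (adjusted p = 0.0709), but was without that library (adjusted p = 0.0205) and with all genes that had a count (adjusted p = 0.0431).

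The balance of the equilibrative pair moved with both line and growth. Per kb, SLC29A1 over SLC29A2 was 3.34 ± 0.505 in LS513 2D and 1.35 ± 0.112 in 3D, with no library of 3D above 1.48 and none of 2D below 2.78. In LS174T it went from 1.58 ± 0.0986 to 0.983 ± 0.0507, and in HT29 from 0.615 ± 0.0325 to 0.485 ± 0.0339, again without overlap. In HCT116 the values were 2.79 ± 0.161 and 2.05 ± 0.605, and the 3D libraries (1.59 to 2.74) overlapped those of 2D (2.61 to 2.91). The ratio was not tested. Its size depends on the length used: with the principal transcripts, an alternative added after seeing the data, it was 1.08 ± 0.0569 in HT29 2D and 0.85 ± 0.0594 in HT29 3D, and 1.72 ± 0.0884 in LS174T 3D.

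**Figure D4:**
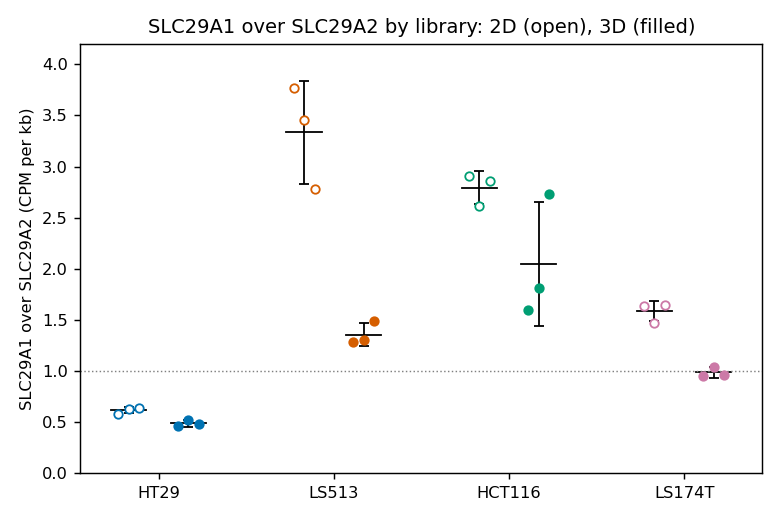
Ratio of SLC29A1 to SLC29A2, both in CPM per kb of exonic length, in each library, with the mean and SD of 3 libraries, 2D as open and 3D as filled points. The dotted line marks equal levels; HT29 lies below it in both conditions with these lengths (with principal transcripts its 2D mean is 1.08), and LS513 has the largest step, from a mean of 3.34 to 1.35.

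The sequences ahead of the start sites are shown for ENTPD2 and SLC29A1, which had calls in 3 or more lines. The stretch of SLC29A1 was cut to 140 bases, where an annotated exon begins. ENTPD8 also had calls in 3 lines and is not shown. Its window lies inside the annotated bounds of the gene, and its overlap with exons was not checked. They come from RefSeq (GRCh38.p14), are written 5′ to 3′ on the strand of the gene, and lie at chr9:137054062-137054311 (minus strand, 250 bases, ENTPD2) and chr6:44219365-44219504 (plus strand, 140 bases, SLC29A1). Capitals mark ACGTG or GCGTG, the core letters of the hypoxia response element, on either strand.
ENTPD2: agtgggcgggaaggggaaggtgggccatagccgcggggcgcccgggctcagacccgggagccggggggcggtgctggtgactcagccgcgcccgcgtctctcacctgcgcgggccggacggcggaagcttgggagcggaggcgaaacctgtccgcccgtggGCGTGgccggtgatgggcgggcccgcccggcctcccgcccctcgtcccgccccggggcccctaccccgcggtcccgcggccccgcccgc
SLC29A1: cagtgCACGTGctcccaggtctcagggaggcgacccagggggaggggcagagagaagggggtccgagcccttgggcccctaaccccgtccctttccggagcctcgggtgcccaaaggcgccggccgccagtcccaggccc
The core was found at 1 place in ENTPD2 and, as overlapping matches on both strands, at 1 place in SLC29A1. RefSeq gave 11 windows of 250 bases for 9 of the members (SLC29A2 had no entry), of which 6 held the core, against 43.2% of all 35116 windows. GGGCGG, the GC box, was in 10 of the 11 windows, against 42.6% of all, and TATAAA, the TATA box, was in 0, against 10.7%. These letters are common, and the matches say nothing of whether a factor was bound. The core was not in the window of ENTPD8 or in the second window of SLC29A1.

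Among the other genes of the pathway, taken from lists by function, calls were scattered. Over all tested genes, 21.1% were called higher and 19.6% lower in HT29, and 16.8% and 12.3% in HCT116. The shares were 13.7% and 9.9% in LS513, and 13.1% and 9.15% in LS174T. The call counts of the 4 lists stand beside these shares and were not tested against them. Of 16 other nucleotidases and phosphatases, 12 were tested. In HT29, 4 were called higher and 1 lower, in HCT116 3 and 1, in LS513 2 and 1, and in LS174T 1 and 2. Over the genes above the limit of 3 counts, the median log2 fold change was 0.14, 0.20, -0.08 and -0.27 in that order, where the median over all tested genes was within 0.02 of 0 in every line. NT5E (CD73), the enzyme that makes adenosine from AMP, was lower in HT29 (82.2 ± 15.4 to 41.8 ± 8.03 CPM, log2 -0.98, adjusted p = 3.98e-05) and higher in HCT116 (32.1 ± 3.37 to 56.0 ± 7.92 CPM, log2 0.81, adjusted p = 0.000506). ENTPD1 (CD39) had at most 10 counts in any library and was not tested. ACP3, prostatic acid phosphatase, which can also cut AMP, was the largest increase in 3 lines: 1.27 to 6.05 CPM in HT29 (log2 2.27), 0.373 to 1.11 CPM in HCT116 (log2 1.57) and 2.20 to 6.58 CPM in LS174T (log2 1.58). In LS513 it was ALPI, intestinal alkaline phosphatase, from 0.198 to 1.44 CPM (log2 2.84, adjusted p = 0.000247). The largest decreases were ENPP5 in LS513 (log2 -0.67), ENTPD7 in HCT116 (log2 -0.63) and ENTPD4 in LS174T (log2 -0.50).

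The 5 other nucleoside transporters were all tested, and the picture differed by gene. SLC29A4, the plasma membrane monoamine transporter that also carries adenosine, rose in HT29 from 2.13, 1.62 and 3.89 CPM to 38.2, 24.9 and 32.8 CPM (log2 3.70, SE 0.30, adjusted p = 6.52e-09). It was also called higher in HCT116 (12.4 ± 1.39 to 24.6 ± 5.62 CPM, log2 0.99, adjusted p = 0.00603) and in LS513 (6.95 ± 2.89 to 11.9 ± 2.08 CPM, log2 0.77, adjusted p = 0.0396), and had at most 4 counts in any LS174T library. Its groups in LS513 overlapped, with 10.26 CPM in 2D replicate 3 and 10.18 CPM in 3D replicate 3. SLC28A3, a sodium-driven concentrative transporter of broad specificity, fell in LS513 (29.9 ± 3.87 to 16.7 ± 2.02 CPM, log2 -0.84, adjusted p = 0.000461) and in LS174T (5.47 ± 0.711 to 2.00 ± 0.468 CPM, log2 -1.46, adjusted p = 9.03e-06). SLC28A2, the purine-selective concentrative transporter, rose in LS174T (2.07 ± 0.544 to 5.01 ± 0.551 CPM, log2 1.27, adjusted p = 0.00301). Of the 3 genes called higher in HCT116 and the 2 in LS174T, SLC28A1 was among them in each, with 0 counts in 2D and at most 5 in a 3D library. In HT29, where it was better covered, SLC28A1 rose from 1.70 ± 0.219 to 4.37 ± 0.09 CPM (log2 1.37, adjusted p = 0.00172). SLC29A3, an equilibrative transporter of lysosomes and other inner membranes, was called higher in HT29 (14.6 ± 1.29 to 21.9 ± 0.606 CPM, log2 0.59, adjusted p = 0.000377) and in HCT116 (8.52 ± 0.561 to 12.6 ± 1.25 CPM, log2 0.57, adjusted p = 0.000964). SLC28A1 and SLC29A3 were named here after their values were seen. SLC28A3 alone was called lower. The median log2 fold change of the transporters above the limit was 0.98 over 4 genes in HT29, 0.78 over 2 in HCT116, 0.23 over 3 in LS513 and 0.06 over 3 in LS174T.

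Adenylate kinases pass phosphate between AMP, ADP and ATP. Of 8 tested, 3 were called higher in HT29, 2 in LS174T and 1 in LS513, and 1 was called lower in LS513. The shares of all genes were 21.1%, 13.1%, 13.7% and 9.9% in that order. In HCT116 edgeR called none, 3 had an unadjusted p under 0.05, and DESeq2 called 1, higher. AK1 led in LS513 (100.2 ± 2.34 to 137 ± 18.6 CPM, log2 0.45, adjusted p = 0.0048) and was, with log2 0.54, the largest increase with at least 1 CPM in HT29. AK4, a mitochondrial family member, led in LS174T (12.8 ± 0.397 to 22.4 ± 4.61 CPM, log2 0.81, adjusted p = 0.00105), and AK9 was lower in LS513 (log2 -0.59, adjusted p = 0.0192). The median log2 fold changes above the limit were 0.32 in HT29, 0.22 in HCT116, 0.07 in LS513 and 0.25 in LS174T.

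Of 21 other adenosine and purine salvage enzymes, 17 were tested. They gave 2 higher and 3 lower calls in HT29, 1 and 3 in HCT116 and 4 and 2 in LS513, and 2 higher calls in LS174T. Over all genes the shares were 21.1% and 19.6%, 16.8% and 12.3%, 13.7% and 9.9%, and 13.1% and 9.15% in that order. The median log2 fold changes of these enzymes above the limit were 0.07, 0.13, 0.16 and 0.09 in the same order. The increases were led by NT5C, a cytosolic nucleotidase, in HT29 (31.4 ± 1.68 to 46.4 ± 7.35 CPM, log2 0.57) and LS174T (26.4 ± 1.65 to 42.9 ± 19.6 CPM, log2 0.70). In LS174T its spread in 3D was wide. XDH, xanthine dehydrogenase, led in LS513 (3.63 ± 0.867 to 12.5 ± 2.23 CPM, log2 1.78, adjusted p = 1.71e-05), and APRT, which salvages adenine, in HCT116 (log2 0.47). The decreases were led by HPRT1, which salvages hypoxanthine and guanine, in HT29 (58.6 ± 4.90 to 38.0 ± 4.09 CPM, log2 -0.62, adjusted p = 2.33e-05), by GDA, guanine deaminase, in LS513 (log2 -0.76, adjusted p = 0.000605) and by ADAL, an ADA-like enzyme, in HCT116 (log2 -0.66, adjusted p = 0.00134).

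**Figure D5:**
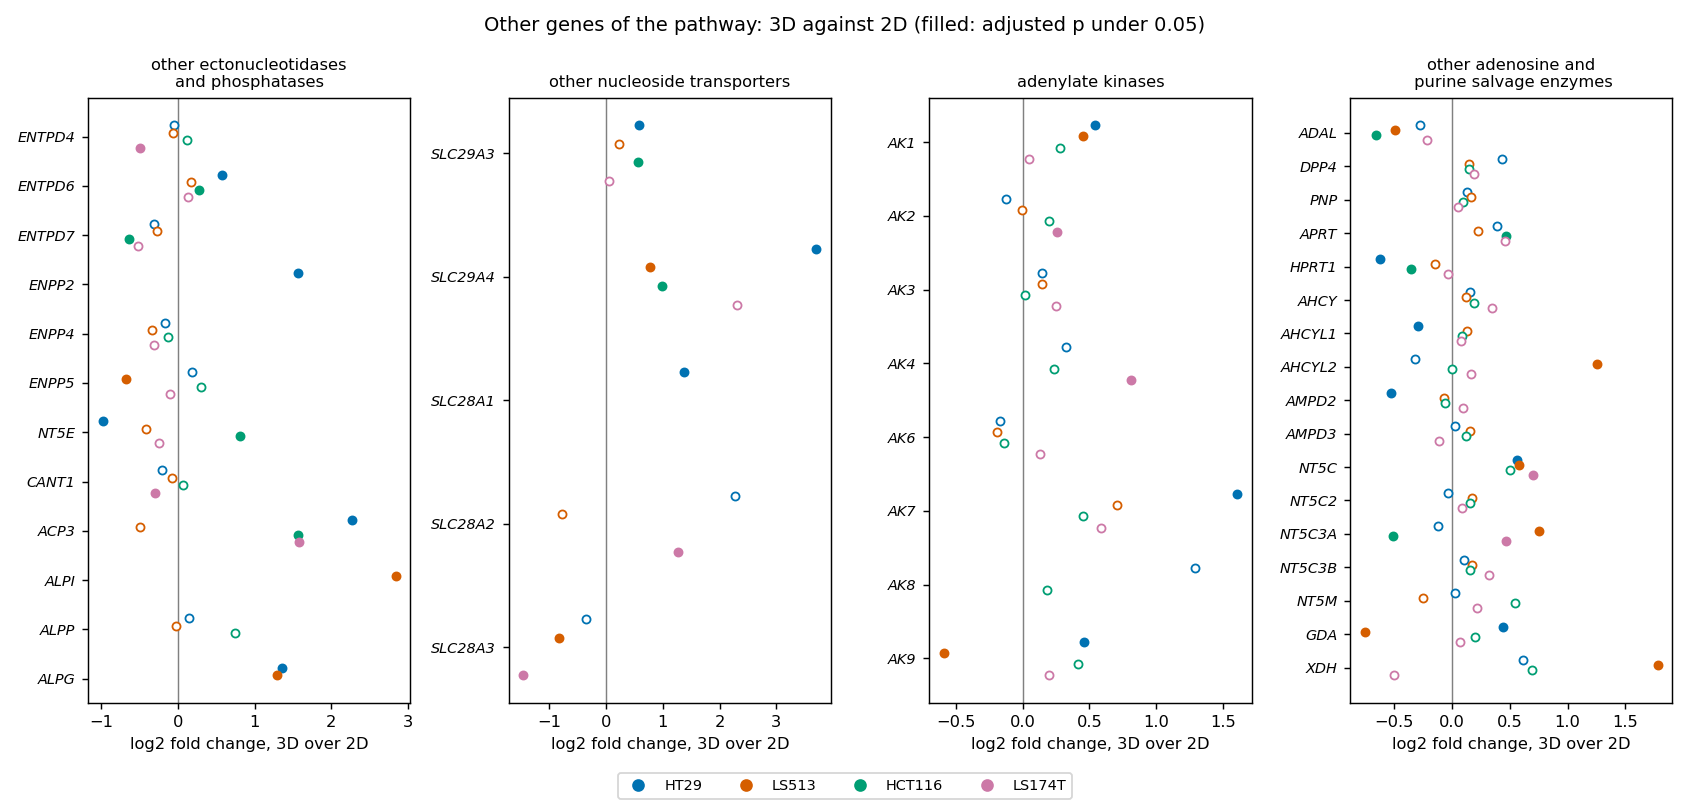
Log2 fold change of 3D over 2D for the tested genes of 4 pathway lists (panels), with 1 point per line. Filled points have an adjusted p under 0.05 (edgeR); points are left out where no library of the line had more than 3 counts or where a group was at 0. The filled point of SLC29A4 in HT29, at 3.70, is the farthest to the right.

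The genes with the pattern most like each member over the 24 libraries were found by Pearson's r of log2 CPM among 16410 genes. The 24 libraries fall into 4 lines, so a high r chiefly means the same order of lines, and r is given again after the mean of each line was taken out. ENTPD2 was closest to NPC1L1 (r = 0.956, within lines 0.892) and LINC02615 (0.956, within lines 0.711), and ENTPD8 to LRRC75B (0.968, within lines 0.902) and the unnamed ENSG00000262302 (0.962, within lines 0.88). SLC29A1 was closest to GALNT10 (0.968, within lines 0.848) and RBSN (0.968, within lines 0.842). For SLC29A2 they were LRCH4 (0.96, within lines 0.832) and ENSG00000274272 (0.95, within lines 0.791), for ADK PRDX3 (0.96, within lines 0.685) and GRPEL1 (0.952, within lines 0.559), and for ENTPD5 MBTD1 (0.865, within lines 0.703) and WDR31 (0.847, within lines 0.683). For the members that separate the lines most, the likeness was largely that of lines: ADA was closest to GAL (0.993, within lines 0.321) and TEKT4P2 (0.99, within lines 0.539), and ENPP1 to ARHGAP22 (0.985, within lines 0.552) and OSBP2 (0.982, within lines 0.364). For ENPP3, LPCAT1 was among the closest (0.916, within lines 0.621). The pseudogene MRPL35P3, the only gene that overlaps a member (ADK) on the same strand, had at most 5 counts in a library.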

How the data were processed

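Human CRC cells of 4 lines were grown in 2D or 3D, and poly(A) RNA was sequenced from a strand-specific kit. The authors deposited their unnormalised gene counts, 1 table per technical replicate, made with bcl2fastq 2.18.0.12, Trim Galore 0.4.1, STAR and HTSeq 0.5.3, as listed in the submitters' processing notes. These notes name hg19, but 57980 of the 58243 gene identifiers are in GENCODE 29 (GRCh38), which was used for names, lengths and positions. The 8 technical replicates of a library (7 in HT29 3D replicate 4, whose remaining 1 was not analysed here) differed by no more than sampling noise and were summed, which gave 24 libraries of 18723942 to 34277421 counts.

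Counts were tested with the quasi-likelihood test of edgeR 4.0.16 (R 4.3.3; TMM scaling, filterByExpr, robust, 1 coefficient per group, two-sided), with Benjamini-Hochberg adjustment over 19387 genes and calls at an adjusted p under 0.05. Intervals are 95%. CPM use TMM-scaled totals. Alternatives were DESeq2 1.42.0 and its size factors, all genes with a count, the 6 libraries of a line alone, a log2 fold change beyond 0.5 on either side, a replicate block, and leaving out each of 24 libraries. The steps were tested on simulated data. The labels do not say that libraries came from separate cultures, so p-values measure only the spread between these libraries. Members and gene lists were chosen with earlier results of these data known. Named are all members, ENTPD1 and NT5E, the called gene of each of 4 pathway lists with the largest increase and decrease per line at 1 CPM or more, the 2 genes most like each member (1 of those for ENPP3 is not reported here), and genes that overlap a member on its strand.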

Additional observations from a re-analysis of the deposited data

Results flagged for a closer look

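The 3D against 2D difference of 4 members differed among the lines in the interaction test of edgeR. ENTPD8 had an adjusted p of 0.0187, with log2 fold changes of 3.36 in HT29, 2.25 in HCT116, 1.56 in LS513 and 0.80 in LS174T. ENPP3 had an adjusted p of 0.0279, with -2.55 in LS513, 0.73 in HCT116 and -0.72 in LS174T. HT29 had no reads of ENPP3 and adds no 3D effect to this test. ADK had an adjusted p of 0.0257, with -0.33 in HT29 and 0.05, 0.02 and 0.18 in LS513, HCT116 and LS174T. SLC29A1 had an adjusted p of 0.035, with -0.51, -0.78, -0.33 and -0.62 in the order HT29, LS513, HCT116 and LS174T, all in the same direction. Leaving out 1 of the 24 libraries ended the call in 1 case for ENTPD8, 7 for ENPP3, 12 for ADK and 16 for SLC29A1. The causes were not tested.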

How the results depend on the processing

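Of 371 repeats of the 34 log2 fold changes of members, 342 kept direction and side of the threshold, 7 lost a call, 12 gained one and 10 changed sign, all without a call. The sign changes were those of ENPP1 in HT29 (0.27 with the replicate block; -0.70 to 0.029 without single libraries), ADA in HT29 (-0.36 to 0.084), ADK in LS513 (-0.011 to 0.11), ADK in HCT116 (-0.0090 with all genes, -0.00015 with 6 libraries, -0.076 to 0.069 without single libraries) and ENTPD5 in LS174T (-0.33 to 0.040). In LS174T, members called rose from 2 to 4 with all genes and with DESeq2, where the number over all genes is not given here. In HCT116 they fell from 2 to 1 under the fold limit. That limit left 2908 genes in LS513, 3656 in HCT116 and 2799 in LS174T, of 4571, 5637 and 4305, as fewer genes can pass it by construction. The 6 libraries of LS174T alone gave 1648. Leaving out single libraries gave 2784 to 5221 genes in LS513, 3747 to 5986 in HCT116 and 2083 to 6038 in LS174T, and 2 to 4 members in HCT116 and in LS174T. The interaction test then called 1 to 4 members.

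Replicate numbers did not pair the libraries: over 11 pairs of the same number r was -0.15 to 0.094, and 3 correlated best with their own number. With the replicate block 5415, 3635, 4614 and 3273 genes were called in HT29, LS513, HCT116 and LS174T, ADK in HT29 was not called (adjusted p = 0.161), and the interaction calls of ENTPD8, ADK and SLC29A1 were lost (adjusted p = 0.081, 0.355 and 0.0931), which left 1. With all genes, ADK in HT29 had an adjusted p of 0.104. The cause of these shifts was not tested. Low counts limit ENPP3, and ENTPD8, ADA and ENPP1 in HT29.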
